A study of Homo sapiens with 12 samples.

Results

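The genes described here are 33 genes of the ATF4 stress response and of amino acid supply, followed in AsPC-1 cells after loss of BACH1. AsPC-1 is an established line of human pancreatic ductal adenocarcinoma, and BACH1 is a heme-binding transcriptional repressor. The genes were chosen by function, as a list of symbols, with earlier results of these data known. All 33 were found among the 57820 gene identifiers of the 2 count tables (a table for each experiment). RNA-seq was run on 12 libraries in 4 groups of 3. In the siRNA experiment, siBACH1 cells were transfected with a BACH1-specific siRNA and siCont cells are the labelled controls, and RNA was taken after 24 hours. In the knockout experiment, sgBACH1 cells carried a lentiviral CRISPR vector with 1 guide against BACH1 and sgCont cells are the labelled controls, both under selection with 10 μg/ml puromycin. The labels say neither what the control siRNA or control guide was, nor whether the selected cells were a pool or a clone. Nothing in the labels says that replicates came from separate cultures, so a p-value here reflects only how far these libraries differ among themselves, a spread that may be technical.

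ATF4 is the transcription factor of the integrated stress response. Kinases that sense amino acid shortage (EIF2AK4, also called GCN2), unfolded protein in the endoplasmic reticulum (EIF2AK3, or PERK), double-stranded RNA or heme shortage phosphorylate the initiation factor subunit EIF2S1, which slows translation in general while ATF4 protein is made from its own mRNA more efficiently. ATF4 then raises genes for amino acid uptake, amino acid synthesis and tRNA charging, and it does so as a dimer with C/EBP-type partners at composite sites. ATF4 is thus controlled largely by translation, which RNA-seq does not measure.

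The letters of such a composite site, TGATGNAA, were searched on both strands from 250 bases before to 50 bases after each gene's start in RefSeq (GRCh38.p14). Of the 33 genes, 30 had an entry; NUPR1, PYCR1 and GPT2 did not. The motif was in 5 of the 30, and in 3.62% of all 35116 promoters. The 5 stretches are shown because they are the only ones among these promoters with the ATF4-type letters, which are in capitals; each is read on the gene's strand, so that a match on the other strand appears as the reverse complement of the motif.
ASNS, chr7:97872458-97872487, minus strand: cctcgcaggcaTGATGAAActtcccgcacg
SLC7A1, chr13:29595663-29595692, minus strand: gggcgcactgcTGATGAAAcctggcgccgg
ATF3, chr1:212565205-212565234, plus strand: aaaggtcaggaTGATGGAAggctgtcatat
CHAC1, chr15:40953251-40953280, plus strand: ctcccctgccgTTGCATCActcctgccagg
GOT1, chr10:99430804-99430833, minus strand: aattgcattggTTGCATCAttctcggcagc
In ASNS the match began 68 bases before the start, and in SLC7A1 7 bases after it. The core letters of an antioxidant response element, TGACNNNGC, were in 8 of the 30 promoters and in 13.3% of all promoters. The site TGANTCAGC, of the kind that BACH1 and NRF2 share, was in 0 of the 30 and in 1.36% of all promoters. A match is a description of the letters and not a bound site, and no match says only that the letters are not in this window.

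Total counts ran from 13099706 to 21478886 per library. The label check was clear under siRNA: BACH1 stood at 24.9, 27.7 and 24.7 CPM (counts scaled to library size) in siBACH1 against 197, 294 and 197 in siCont (log2 fold change -3.15 ± 0.17 SE, adjusted p = 4.09e-06, edgeR). Under knockout BACH1 mRNA was 218, 198 and 185 CPM against 268, 294 and 276 (log2 -0.48 ± 0.08, adjusted p = 4.48e-05). HMOX1, the heme oxygenase gene that BACH1 represses, rose in both (log2 4.70 and 5.70). CPM values are scaled within each experiment, so levels are not compared between the 2 experiments; the labelled cell type was checked with ductal genes, of which KRT8, KRT18, KRT19 and EPCAM were expressed in every library. KRT17 was near 0 (0 to 0.29 CPM), and KRT7 was low (2.39 to 15.1 CPM) and fell in both experiments (log2 -1.48 and -1.81). Markers of acinar, endocrine and endothelial cells summed to under 1 CPM in each library, with INS, GCG and SST at 0. In the blood and fibroblast lists LYZ and LUM were expressed, and both moved with the knockout (log2 3.62 and -1.34); their part in the results was not tested. One library stood apart. SiCont replicate 2 differed from siCont replicates 1 and 3 by a chi-square per degree of freedom of 29.7 and 35.3, whereas those 2 differed from each other by 8.84, and siRNA counts and calls of members are given with and without it.

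SiCont replicate 2 carried high levels of most of the ATF4 module. Its level was at least 2 times the mean of the other 2 siCont libraries for 20 of the 29 members with enough counts to be tested, against 2.32% of all tested genes, and it was at or under 0.5 of that mean for 0 of the 29. The median ratio was 3.03 over the members and 0.996 over all genes. Members were chosen with earlier results of these data known, so their contrast with all genes is a description and not independent support. These ratios describe 1 library and have no test, and in bulk RNA more cells expressing a gene and more RNA per cell cannot be told apart. SLC1A4, the neutral amino acid transporter ASCT1, had the highest ratio of all 14591 genes: 32.2 CPM in siCont replicate 2 against 0.84 and 0.65 in replicates 1 and 3, a ratio of 26.3. TRIB3, a pseudokinase that binds ATF4, ranked 5 with 342 CPM against 33.5 and 31.0. SESN2, a leucine sensor upstream of mTORC1, ranked 6 with 110.1 CPM against 11.3 and 9.60. CHAC1, which breaks down glutathione, ranked 8, and ASNS, which makes asparagine, ranked 9 with 1051 CPM against 116 and 107. SLC6A9 (rank 11), DDIT3 (13), PCK2 (19), DDIT4 (24) and CTH (25) followed, with ratios from 4.05 to 7.76. Each of these 10 genes was higher in siCont replicate 2 than in any other library of the siRNA experiment.

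**Figure D1:**
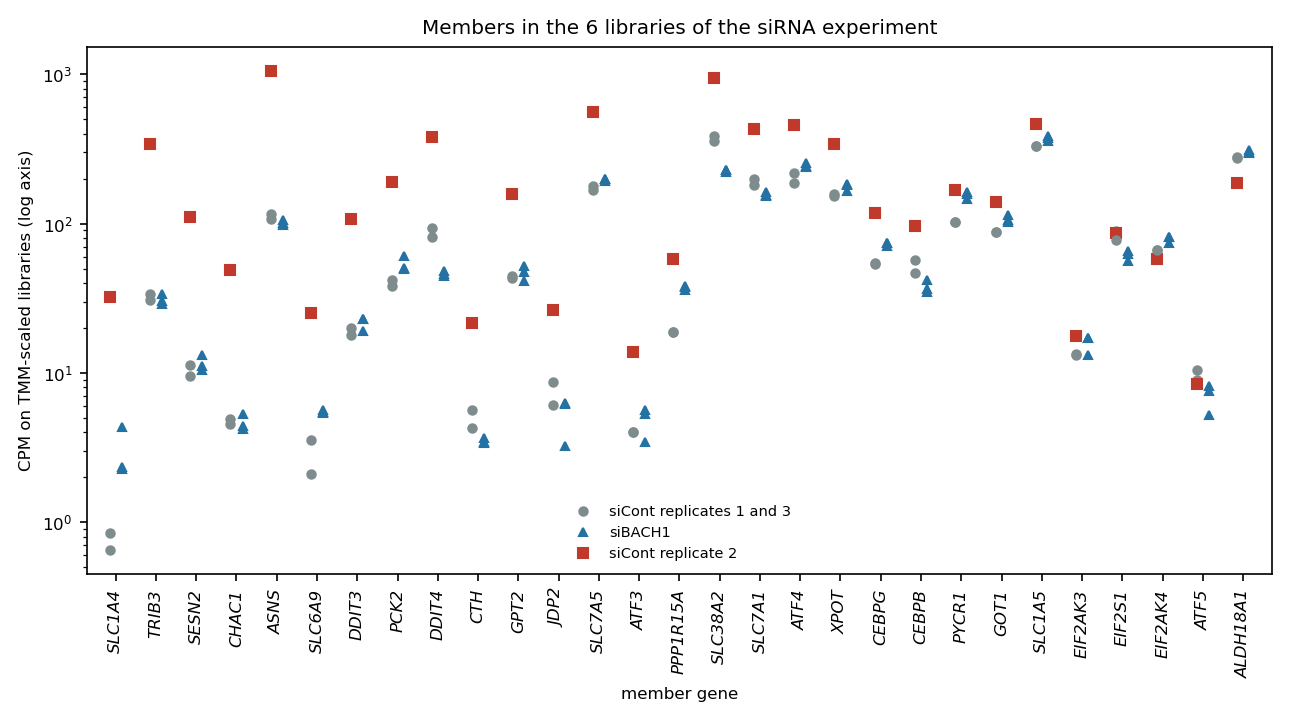
CPM of the 29 tested members in the 6 libraries of the siRNA experiment (log axis), ordered from the highest to the lowest ratio of siCont replicate 2 (red squares) to the other 2 siCont libraries (grey circles); blue triangles are the 3 siBACH1 libraries. For most genes on the left the red square stands far above 5 points that lie close together, while for the genes from EIF2AK3 to the right end it lies near or below them.

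Of the 9 tested members under 2 times in siCont replicate 2, 3 belong to the sensing arm. EIF2AK4 stood at 57.9 CPM there against 66.1 and 66.7, and EIF2S1, the substrate of the kinases, at 86.4 against 89.0 and 77.4. EIF2AK3 had a ratio of 1.32 and ATF5, a stress-responsive relative of ATF4, one of 0.87. ALDH18A1, the first enzyme of proline synthesis, was lower than in either of the others, at 187 CPM against 279.8 and 274.8. SLC1A5, GOT1, PYCR1 and CEBPB had ratios of 1.40, 1.59, 1.64 and 1.86. ATF4 mRNA itself was 456 CPM against 188 and 217. In the other 11 libraries the ratio to the rest of their group reached 2 for at most 1 member. CPM summed over all 33 members was 6635.5 in siCont replicate 2 and 2543 to 2624 in the other 5 libraries of the siRNA experiment.

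Other lists split in the same way in that library. These lists too were chosen with earlier results of these data known, so the split is not independent support. Of the 13 cytosolic tRNA synthetase genes known as ATF4-linked, 9 were at least 2 times higher than in the other siCont libraries, and their summed level was 5359 CPM against 2414 and 2485. Among the 7 other cytosolic synthetases 0 reached 2 times, with 861 CPM against 801 and 788. GARS1, WARS1 and SARS1, which charge glycine, tryptophan and serine tRNAs, had ratios of 3.37, 3.30 and 2.99; HARS1, QARS1 and RARS1, which charge histidine, glutamine and arginine tRNAs, had 1.06, 1.00 and 1.01. Of 17 tested further ATF4 targets 13 reached 2 times, among them GDF15 (14.2), PSAT1 (4.70) and MTHFD2 (4.69). In a list of 15 core genes of the integrated stress response outside the members, 1 reached 2 times, IMPACT, which inhibits EIF2AK4 activation (2.13). SiCont replicate 2 also had the lowest total count, 13099706, and BACH1 was 294 CPM in it; the part of these in the pattern was not tested.

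**Figure D2:**
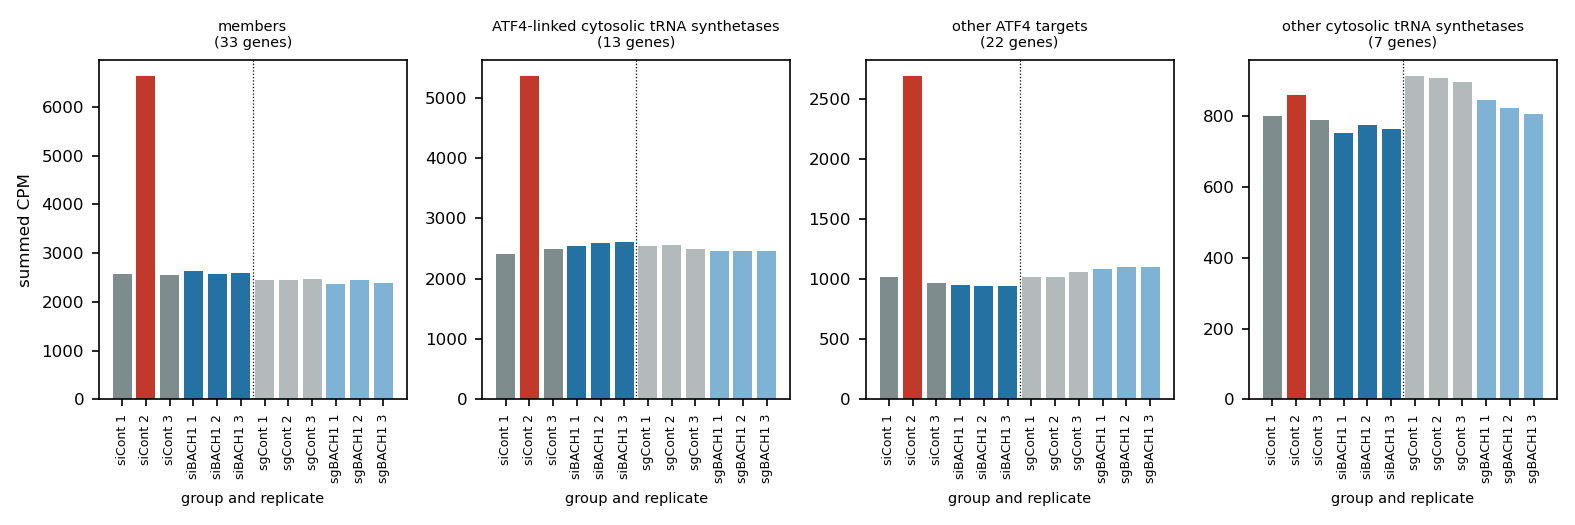
Summed CPM of 4 gene lists in each of the 12 libraries (bars, axis from 0; the dotted line divides the siRNA from the knockout experiment, which were scaled separately). SiCont replicate 2, in red, reaches 6635.5 for the members and 5359 for the ATF4-linked synthetases, above the other 5 libraries of the siRNA experiment, and 861 for the other synthetases, where those 5 lie between 753 and 801.

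Against all 3 siCont libraries, 1 member rose and 4 fell after BACH1 siRNA among the 29 tested (edgeR, adjusted p below 0.05), where 10.9% of all 14591 tested genes rose and 13% fell. The median log2 fold change of the members was -0.75, and 0.005 over all genes. Against siCont replicates 1 and 3 alone, 12 of 30 members rose and 5 fell, where 16.6% of 15112 genes rose and 17.3% fell. The median was 0.18, with 0.003 over all genes. Most members were high in siCont replicate 2, so leaving it out raises their fold changes by construction. The spread of the controls then rests on siCont replicates 1 and 3 only. In 7 members (ATF4, CEBPG, PCK2, SLC7A5, SLC1A4, SLC6A9 and XPOT) the fold change turned from below 0 to a called rise. Leaving out another library also changed the count. Without siCont replicate 1, 9 members were called, all lower, where 1095 of 15138 genes rose and 1604 fell. Without siCont replicate 3, 11 were called, all lower, where 1223 of 15036 genes rose and 1752 fell. SiCont replicate 2 remained among the controls in both of these fits. Without any one of the siBACH1 libraries 1 member was called, where 2002 to 2096 of all genes were called. The members too low to test were VLDLR, STC2 and CBS in both versions and NUPR1 in the first. Exons of ATF5, DDIT3, SLC7A5, SLC1A5, SLC6A9, EIF2AK3, JDP2, PYCR1 and GOT1 overlap exons on the opposite strand, for DDIT3 those of MARS1 (ratio 2.92 in siCont replicate 2), and without strand such reads cannot be told apart. ASNS shares exon bases with AC079781.5 on its own strand, so its reads there are uncertain too.

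Among the sensors, EIF2AK4 was the one member that rose in both versions. It stood at 81.2, 74.5 and 81.5 CPM in siBACH1 and at 66.1, 57.9 and 66.7 in siCont, with no overlap (log2 0.31 ± 0.09, adjusted p = 0.034; without siCont replicate 2, 0.25 ± 0.07, adjusted p = 0.012). This call was lost when any one library other than siCont replicate 2 was left out. EIF2S1 fell: 62.7, 55.9 and 65.3 CPM against 89.0, 86.4 and 77.4 (log2 -0.46 ± 0.10, adjusted p = 0.0080; without siCont replicate 2, -0.45 ± 0.08, adjusted p = 0.00016), a call kept whichever library was left out. EIF2S1 shares exon bases on the opposite strand with ATP6V1D, and the sources give no strand setting for the counting. PPP1R15A, or GADD34, brings a phosphatase to EIF2S1 and so ends the response. Its siBACH1 libraries lay close together, at 36.1, 38.3 and 37.6 CPM, and siCont libraries at 18.8, 57.6 and 18.7 on either side of them. The comparison with all 3 was not called (log2 0.25 ± 0.37, adjusted p = 0.68), and without siCont replicate 2 the gene rose (0.99 ± 0.11, adjusted p = 1.23e-07). EIF2AK3 was not called in either (0.11 ± 0.17 and 0.25 ± 0.15).

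The transcription factors split. ATF4 had 254, 243 and 238 CPM in siBACH1 and 188, 456 and 217 in siCont, so that the siBACH1 values lay above 2 of the controls and below the third. Its log2 fold change was -0.23 ± 0.27 (adjusted p = 0.60) with all controls and 0.27 ± 0.06 (adjusted p = 0.0020) without siCont replicate 2. CEBPG, a dimer partner of ATF4, showed the same layout, with 74.5, 70.9 and 74.6 CPM against 54.4, 117 and 53.4. It rose by 0.44 ± 0.08 on the log2 scale without siCont replicate 2 (adjusted p = 7.30e-05), and stood at -0.03 with it. CEBPB, which makes another C/EBP partner, fell in both versions. Its level was 42.2, 36.6 and 34.9 CPM in siBACH1 against 46.5, 96.6 and 57.1 in siCont, all below every control (log2 -0.81 ± 0.23, adjusted p = 0.032; without siCont replicate 2, -0.46 ± 0.10, adjusted p = 0.00096). CEBPB overlaps the antisense gene CEBPB-AS1, so reads of the 2 cannot be told apart without strand. ATF3, ATF5, DDIT3 and JDP2, which encode further stress-induced or AP-1-type factors, were not called in either version. DDIT3, the gene for CHOP, had 23.0, 23.1 and 19.1 CPM in siBACH1 against 17.9, 107 and 19.9.

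Of the stress effectors, DDIT4 fell in both versions. DDIT4, or REDD1, restrains mTORC1. Its level was 48.3, 44.8 and 46.3 CPM in siBACH1 and 92.9, 381 and 81.8 in siCont, so all siBACH1 values lay well below the lowest control (log2 -1.99 ± 0.51, adjusted p = 0.021; without siCont replicate 2, -0.92 ± 0.08, adjusted p = 3.40e-09). It overlaps DDIT4-AS1 on the other strand. TRIB3, CHAC1 and SESN2 were not called in either version, and their values differed between the versions by more than their errors. TRIB3 stood at 30.1, 33.7 and 29.0 CPM in siBACH1, inside or just beside the 33.5 and 31.0 of siCont replicates 1 and 3, and its log2 fold change of -2.13 ± 0.80 (adjusted p = 0.087) became -0.06 ± 0.11 (adjusted p = 0.69). For CHAC1 the values were -2.04 ± 0.81 and -0.03 ± 0.25, and for SESN2 -1.90 ± 0.80 and 0.15 ± 0.17, with no call. With all 3 controls, the calls of DDIT4, CEBPB and SLC38A2 were lost without any one siBACH1 library (adjusted p up to 0.12). NUPR1, a small stress-induced chromatin protein, was tested only without siCont replicate 2 and was not called (1.32 ± 0.74, adjusted p = 0.18).

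Amino acid transporters moved in opposite directions once siCont replicate 2 was set aside. SLC38A2, the sodium-coupled neutral amino acid transporter SNAT2, fell in both versions: 229.8, 220.0 and 228 CPM against 384, 938 and 356 (log2 -1.31 ± 0.32, adjusted p = 0.016; without siCont replicate 2, -0.72 ± 0.06, adjusted p = 7.50e-10). The 3 siBACH1 values lay within 10 CPM of each other and below every control. SLC7A1, the arginine and lysine transporter CAT1, fell when siCont replicate 2 was left out (-0.29 ± 0.06, adjusted p = 0.00061), with 162, 152 and 156 CPM against 182 and 199. SLC1A4 was read 71, 45 and 51 times in the siBACH1 libraries, 12 and 11 times in siCont replicates 1 and 3, and 404 times in replicate 2. Without that library it rose by 1.98 ± 0.45 on the log2 scale (adjusted p = 0.0013); with it, the value was -1.90 ± 1.15 (adjusted p = 0.27). The glycine transporter gene SLC6A9 went from -0.88 ± 0.73 to a called rise of 0.95 ± 0.27 (adjusted p = 0.0093), at 5.42, 5.47 and 5.66 CPM against 2.11 and 3.53. Smaller rises without siCont replicate 2 were those of SLC7A5, the leucine transporter LAT1 (0.18 ± 0.06, adjusted p = 0.021), and SLC1A5, the glutamine transporter ASCT2 (0.18 ± 0.06, adjusted p = 0.017).

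Of the enzymes of amino acid metabolism, PYCR1, PCK2 and GOT1 rose without siCont replicate 2, and none was called with all controls. PYCR1, which makes proline, had 162, 157 and 147 CPM in siBACH1 against 102, 168 and 103 in siCont, and rose by 0.59 ± 0.06 without replicate 2 (adjusted p = 9.82e-08). PCK2, the mitochondrial phosphoenolpyruvate carboxykinase, rose by 0.41 ± 0.10 (adjusted p = 0.0019) and GOT1, the cytosolic aspartate aminotransferase, by 0.29 ± 0.07 (adjusted p = 0.0020). The tRNA exporter gene XPOT rose by 0.19 ± 0.06 (adjusted p = 0.026). ASNS was not called: 97.4, 105 and 101 CPM in siBACH1, below 116, 1051 and 107 in siCont without overlap, gave -2.07 ± 0.76 (adjusted p = 0.080) with all controls and -0.14 ± 0.07 (adjusted p = 0.11) without replicate 2. ALDH18A1, GPT2 and CTH were not called in either version.

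**Figure D3:**
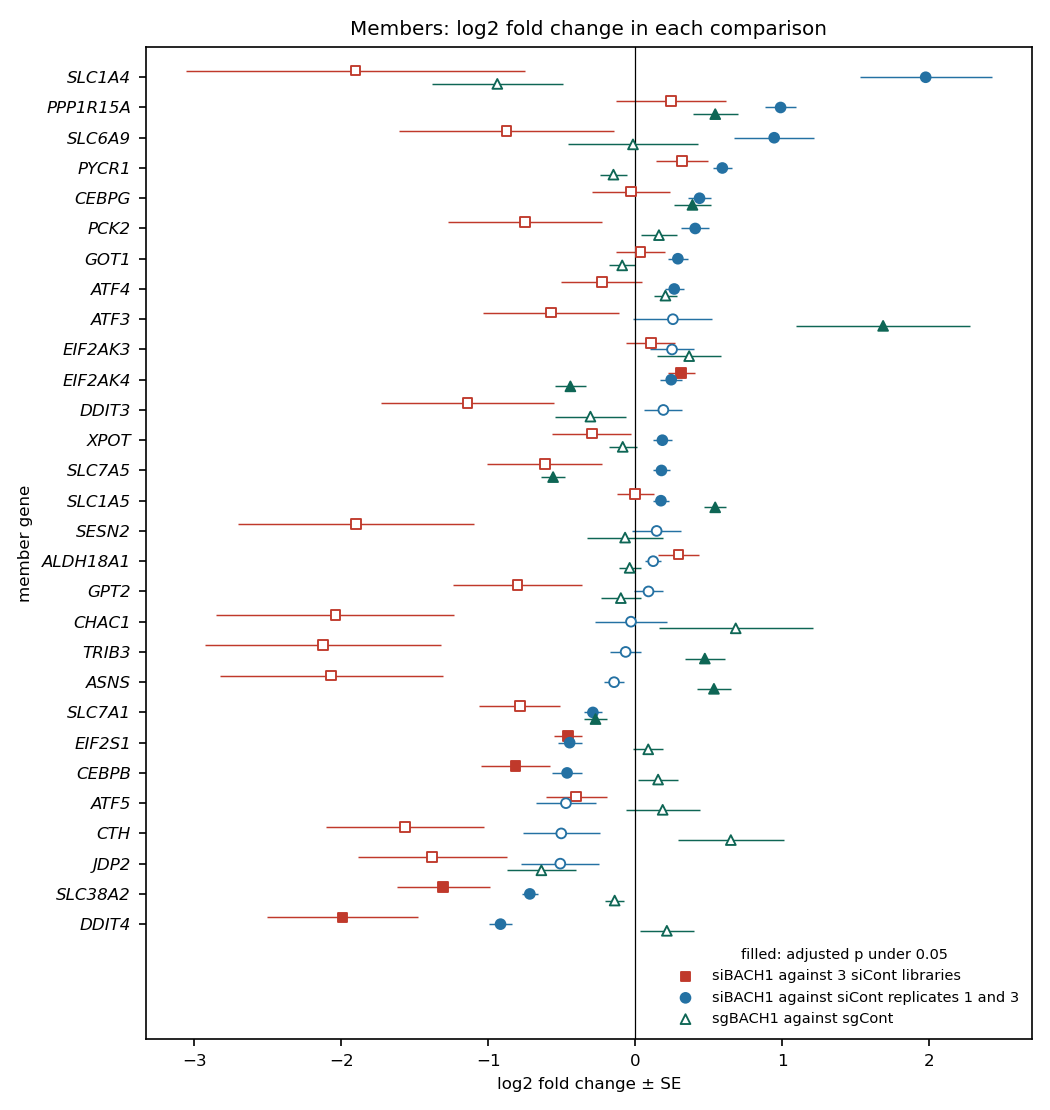
Log2 fold change ± SE of the 29 members tested in all 3 comparisons: siBACH1 against 3 siCont libraries (red squares), siBACH1 against siCont replicates 1 and 3 (blue circles) and sgBACH1 against sgCont (green triangles), with filled symbols for adjusted p below 0.05. Red squares lie at or below -1.90 with wide bars for SLC1A4, SESN2, CHAC1, TRIB3, ASNS and DDIT4, and their blue circles lie between -0.92 and 1.98 with short bars, apart from that of SLC1A4.

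The 5 members that fell without siCont replicate 2 were looked at for a short 3′ UTR word, AACATTA or ACATTAA. It was read on the transcript strand in coding transcripts of the basic annotation of GENCODE release 29. Shares were taken over genes with a 3′ UTR in that annotation. The word was present in 47.8% of the 2385 such genes that fell in that comparison. It was in 14.6% of the 2349 that rose and 20.1% of the 7077 not called. After knockout it was in 23.9% of the 1651 that fell, 26.8% of the 1514 that rose and 24.6% of the 8421 not called. Among the members it was in 3 of the 5 that fell, in 0 of the 12 that rose and in 4 of the 13 not called (CTH, JDP2, NUPR1 and SESN2). The 3 stretches are shown because they belong to members that fell, with the word in capitals; 2 of them hold both words, which overlap.
SLC38A2, base 2322 of a 3′ UTR of 2922 bases: tatagaacAACATTAatccatta
SLC7A1, base 1118 of 5070: tagggcatAACATTAacttggaa
EIF2S1, base 2823 of 3076: ataagtaaAACATTAgcttgtga
DDIT4 and CEBPB, the other two that fell, hold neither word. The word was chosen with earlier results of these data known, the sources used here do not give the siRNA's own sequence, and the word's part in these falls was not tested.

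After knockout, 6 of the 29 tested members rose and 3 fell (edgeR, adjusted p below 0.05), where 11.3% of 14469 genes rose and 12.3% fell. The median log2 fold change was 0.09, against 0.006 over all genes. The 9 called members were spread over all roles, and the summed level of the module did not separate the groups, at 2376 to 2449 CPM in sgBACH1 and 2439 to 2465 in sgCont.

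ATF3, TRIB3, ASNS and CEBPG were among the rises. ATF3, an ATF4 target and itself a stress-induced repressor, was low: 49, 44 and 29 counts in sgBACH1 against 11, 11 and 14 in sgCont, or 2.96, 2.74 and 1.40 CPM against 0.59, 0.77 and 0.83. The groups did not overlap (log2 1.69 ± 0.59, adjusted p = 0.040), and the call was lost without any one library except sgBACH1 replicate 3, with adjusted p up to 0.20. ASNS had 60.6, 63.1 and 62.9 CPM against 46.5, 36.1 and 46.0 and rose (0.54 ± 0.12, adjusted p = 0.0012), a call kept whichever library was left out. TRIB3 had 39.8, 41.4 and 35.8 CPM against 29.4, 24.2 and 30.5 (0.47 ± 0.14, adjusted p = 0.012), and its call was lost without sgBACH1 replicate 1 or 2. CEBPG rose by 0.39 ± 0.13 (adjusted p = 0.028) from 36.5, 32.4 and 32.8 to 38.7, 47.5 and 47.1 CPM; it lost the call in 4 of 6 such tests. ATF4 itself lay at 171, 176 and 167 CPM against 144, 148 and 154, without overlap, and just missed the threshold (0.21 ± 0.08, adjusted p = 0.054). CHAC1 and CTH, 2 other targets, were not called (0.68 ± 0.52 and 0.65 ± 0.36).

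SLC1A5 and PPP1R15A rose and SLC7A5, SLC7A1 and EIF2AK4 fell. SLC1A5 had 299.8, 311 and 306 CPM in sgBACH1 and 192, 226 and 210.2 in sgCont (log2 0.54 ± 0.07, adjusted p = 5.09e-06). PPP1R15A had 28.0, 26.6 and 24.6 CPM against 18.5, 17.2 and 18.4 (0.54 ± 0.15, adjusted p = 0.010). SLC7A5 went the other way, with 171, 178 and 189.9 CPM against 254, 249 and 290.1 (-0.56 ± 0.08, adjusted p = 7.77e-06). EIF2AK4 had 86.7, 75.8 and 69.4 CPM in sgBACH1 against 119, 90.0 and 105 in sgCont, so the highest sgBACH1 value lay just under the lowest control (-0.44 ± 0.11, adjusted p = 0.0033). SLC7A1 had 185, 181 and 179.5 CPM against 225, 203 and 229 (-0.27 ± 0.08, adjusted p = 0.010). The calls of SLC1A5, SLC7A5 and EIF2AK4 held whichever library was left out; that of PPP1R15A was lost without sgBACH1 replicate 1 and that of SLC7A1 without sgBACH1 replicate 2 or 3.

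**Figure D4:**
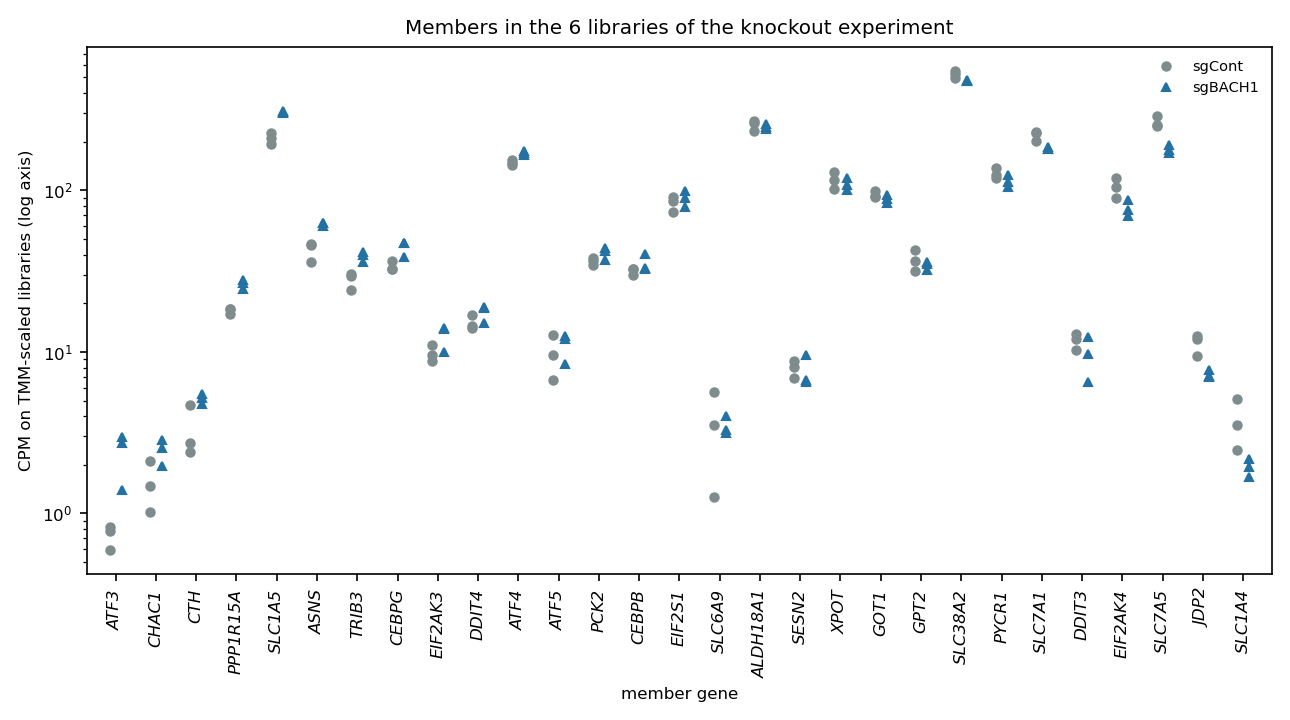
CPM of the 29 tested members in the 3 sgBACH1 (blue triangles) and 3 sgCont (grey circles) libraries of the knockout experiment (log axis), ordered from the highest to the lowest log2 fold change. ATF3 at the left is separated between 1.40 and 0.83 CPM, SLC1A5 and SLC7A5 are separated in opposite directions, and no single library stands apart for the module as siCont replicate 2 does in the siRNA experiment.

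Some called members have chromosomal neighbours whose median fold change after knockout was also away from 0. For each member the median log2 fold change was taken over up to 50 tested genes on either side in GENCODE 29 order, a comparison chosen after such shifts had been seen. SLC7A5 on chromosome 16 fell by 0.56, and its neighbours had a median of -0.44. SLC1A5 and PPP1R15A, both on chromosome 19, rose by 0.54 each, with neighbour medians of 0.37 and 0.38. ATF5, on the same chromosome, had 0.19 with neighbours at 0.40, and DDIT3 on chromosome 12 had -0.30 with neighbours at -0.29. The stretches around SLC1A5, PPP1R15A and ATF5 lie close together and are not separate observations. The neighbours of ASNS (0.02), ATF3 (-0.02), CEBPG (0.02), TRIB3 (-0.08), SLC7A1 (0.09) and EIF2AK4 (0.06) were near 0. The part of the neighbourhood in the members' changes was not tested.

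**Figure D5:**
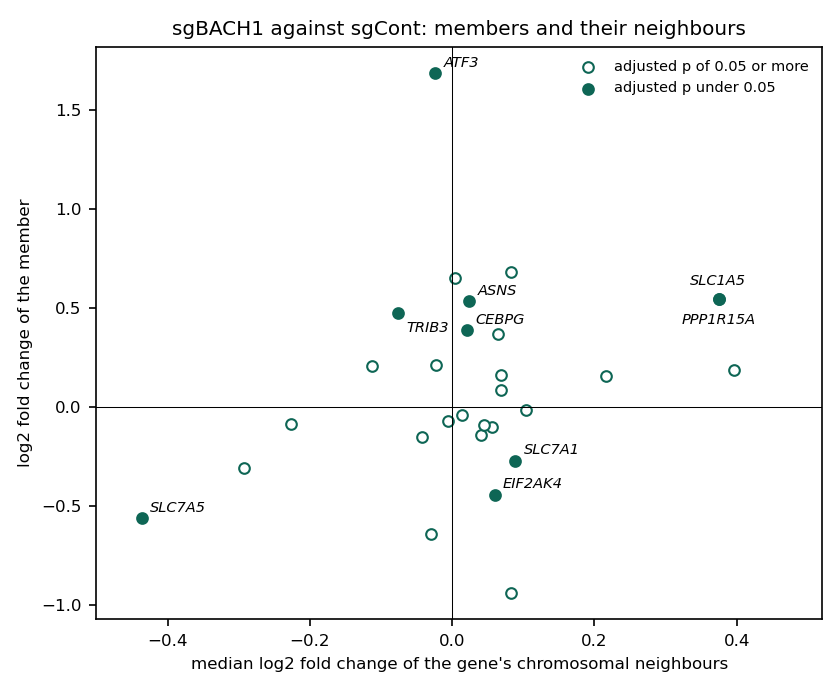
Log2 fold change after knockout of the 29 tested members (vertical axis) against the median of their chromosomal neighbours (horizontal axis), with filled points for adjusted p below 0.05. SLC7A5 lies at the lower left and SLC1A5 and PPP1R15A, whose points coincide, at the right, away from a neighbour median of 0, while ATF3, ASNS, TRIB3, CEBPG, SLC7A1 and EIF2AK4 lie near it.

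The 2 experiments share no library. Of the 17 members called under siRNA without siCont replicate 2 and the 9 called after knockout, 6 were common, which is 35.3% of the first and 66.7% of the second; over the 14031 genes tested in both, 1682 were called in both, or 33.5% of the first and 50.5% of the second. Of those 1682 genes 957 had the same direction, and of the 6 members 4 did. CEBPG, SLC1A5 and PPP1R15A rose in both and SLC7A1 fell in both, whereas SLC7A5 and EIF2AK4 were called in opposite directions. The difference between the responses was tested as an interaction over all 12 libraries. With all libraries, the siRNA response was higher than the knockout response for 1 of 30 members and lower for 9, where 10.6% of 15644 genes were higher and 13% lower. Without siCont replicate 2, 5 were higher and 7 lower, where 11.3% of 16309 genes were higher and 13.2% lower.

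For 4 genes that fell under siRNA and were not called after knockout, the difference was called in both versions. DDIT4 differed by -2.20 ± 0.57 (adjusted p = 0.0092), and by -1.13 ± 0.17 without siCont replicate 2 (adjusted p = 3.39e-05). SLC38A2 differed by -1.16 ± 0.33 and -0.57 ± 0.08, CEBPB by -0.96 ± 0.27 and -0.61 ± 0.18, and EIF2S1 by -0.54 ± 0.15 and -0.53 ± 0.15. Leaving out 1 library at a time, CEBPB lost the call in 1 of 12 tests and EIF2S1 in 2 (adjusted p up to 0.050 and 0.055). ASNS and TRIB3, which rose after knockout, also differed in both versions, but by sizes that rested on the 1 library: -2.59 ± 0.81 became -0.67 ± 0.13 for ASNS, and -2.59 ± 0.85 became -0.53 ± 0.18 for TRIB3. Of the 12 tests that left out 1 library each, 9 lost the call of ASNS and 9 that of TRIB3 (adjusted p up to 0.061 and 0.076), siCont libraries excepted. EIF2AK4 was higher under siRNA in both (0.76 ± 0.16 and 0.69 ± 0.15). Without siCont replicate 2, SLC1A4 (2.92 ± 0.63), SLC7A5 (0.74 ± 0.10), PYCR1 (0.75 ± 0.12) and GOT1 (0.38 ± 0.11) were also higher under siRNA, and ATF3 and CTH were no longer called.

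Beyond the members, further ATF4 targets were called in both directions. The shares of all genes that rose and fell stand beside these counts: 10.9% and 13% under siRNA, 16.6% and 17.3% without siCont replicate 2, and 11.3% and 12.3% after knockout. Of 17 tested targets, 1 rose and 4 fell with all controls and 4 rose and 5 fell without siCont replicate 2 (median log2 0.01). After knockout 5 rose and 3 fell (median -0.06). CEBPD was the target that rose with all controls, by 0.93 (adjusted p = 0.00038, edgeR). It rose by 1.01 without siCont replicate 2, where its ratio was 1.19, and was not called after knockout (-0.35). GDF15, a secreted stress cytokine, had 14.8, 14.3 and 14.0 CPM in siBACH1 against 3.59, 52.9 and 2.94 in siCont. Its log2 fold change was -0.44 ± 0.86 with all controls (adjusted p = 0.75, edgeR). Without siCont replicate 2 it was a called rise of 2.13 (adjusted p = 7.21e-09). It also rose after knockout, by 3.24, from 1.45, 1.27 and 2.00 to 15.0, 13.9 and 16.0 CPM. VEGFA, the angiogenic growth factor, rose by 0.92 without siCont replicate 2 and by 0.64 after knockout, with -0.05 (not called) against all controls. PSAT1, of serine synthesis, fell by 2.49 with and by 1.32 without siCont replicate 2, and SLC7A11, the cystine transporter xCT, fell by 1.26 and 0.69 under siRNA and rose by 1.01 after knockout. Of the 13 ATF4-linked synthetases, 0 were called under siRNA with all controls by edgeR, DESeq2 or limma-voom, and 3 had an unadjusted p below 0.05 in edgeR. Without siCont replicate 2, 4 rose (EPRS1, GARS1, TARS1 and CARS1) and WARS1 fell, and after knockout CARS1 rose and VARS1 and MARS1 fell.

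The core of the integrated stress response outside the members also held opposite calls. GCN1, which activates EIF2AK4 on stalled ribosomes, rose by 0.36 under siRNA (0.29 without siCont replicate 2) and fell by 0.67 after knockout, as EIF2AK4 did. EIF2AK1, the heme-regulated kinase HRI, rose by 0.18 without siCont replicate 2 and by 0.34 after knockout; with all controls it had 0.22 and was not called. Of the 15 genes of that list, 2 were called under siRNA with all controls (GCN1 and QRICH1, both higher), 4 rose and 1 fell without siCont replicate 2, and 2 rose and 4 fell after knockout. Among 9 other amino acid transporters tested, SLC6A6 (taurine), SLC36A4 and SLC38A1 fell under siRNA, by 1.76, 1.20 and 0.96, and by 1.97, 1.09 and 0.57 without siCont replicate 2; none of the 9 rose with all controls, and SLC7A6 and SLC1A1 rose without that library (0.25 and 0.58). After knockout 1 of the 9 rose and 1 fell: SLC38A5, at 7.80, 6.84 and 10.7 CPM against 0.38, 1.83 and 1.65, rose by 2.74, and SLC38A10 fell by 0.44. Of 12 other enzymes of amino acid metabolism tested under siRNA 1 rose and 2 fell, and of 13 without siCont replicate 2, 1 rose and 4 fell. Of 12 tested after knockout, 3 rose and 3 fell, with BCAT2, of branched-chain amino acid breakdown, at 0.86; BCAT2 also rose under siRNA (0.76, and 0.64 without siCont replicate 2).

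Per length, in CPM per kilobase of exon, the members spanned a wide range in siCont replicates 1 and 3. SLC1A5 (98.8), ALDH18A1 (82.5), ATF4 (80.6) and SLC38A2 (73.9) had the highest mean levels there, and SLC1A4 (0.16), SLC6A9 (0.65) and JDP2 (1.29) were among the lowest of those tested. In sgCont the highest were SLC38A2 (104.7), ALDH18A1 (75.6), SLC1A5 (62.9), ATF4 (59.1) and SLC7A5 (57.6). These lengths are exon unions of GENCODE 29, not of the annotation that was counted, and no test was made between genes.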

How the data were processed

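Total RNA was depleted of ribosomal RNA and sequenced on an Ion Proton, per the labels' protocols. The deposited values are raw counts per gene identifier, made by the authors with HTSeq 0.9.1 and SAMtools on hg19, per the submitters' processing notes; the sources used here give no aligner or strand setting. Symbols for 51996 identifiers came from GENCODE and RefSeq tables. Counts were fitted in R 4.3.3 with edgeR 4.0.16 (TMM scaling, filterByExpr with a minimum count of 10, quasi-likelihood test, Benjamini-Hochberg adjustment over all genes tested, threshold 0.05), each experiment alone, and all 12 libraries in 1 fit for the difference of responses. The fit was tested on simulated data. Ratios of 1 library to the rest of its group used CPM plus 0.5. Alternatives were other scalings, count filters, DESeq2 1.42.0, limma-voom (limma 3.58.1), a replicate block and each library left out. Members given values per library are those called in either comparison, those whose call changes without siCont replicate 2, and the 10 with the highest ratio in that library. ALDH18A1 was given values in the siCont libraries outside this rule. From other lists, up to 4 of the largest called changes were named. Genes named beyond that (IMPACT, SARS1, HARS1, QARS1, RARS1, EIF2AK1) were chosen after their values were seen. Members, lists and motifs were chosen with earlier results of these data known.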

Additional observations from a re-analysis of the deposited data

Results flagged for a closer look

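For 10 members the response differed between siRNA and knockout by the interaction test (edgeR, adjusted p below 0.05, siRNA minus knockout, log2). EIF2AK4 differed by 0.76, with a rise under siRNA and a fall after knockout. The other 9 were lower under siRNA: ASNS by -2.59, TRIB3 by -2.59, ATF3 by -2.25, CTH by -2.21, DDIT4 by -2.20, SLC38A2 by -1.16, CEBPB by -0.96, EIF2S1 by -0.54 and SLC1A5 by -0.54. Without siCont replicate 2 the sizes were -0.67 for ASNS, -0.53 for TRIB3, -1.13 for DDIT4, -0.57 for SLC38A2, -0.61 for CEBPB, -0.53 for EIF2S1, -0.36 for SLC1A5 and 0.69 for EIF2AK4, all still called, while ATF3 (-1.42, adjusted p = 0.069) and CTH (-1.15, adjusted p = 0.060) were not.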

How the results depend on the processing

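Of the members called under siRNA (5 with all libraries), leaving out 1 library gave 1 to 17 and no count filter 21; all 12 libraries in 1 fit gave 11. Without siCont replicate 2, upper quartile scaling gave 18, and RLE size factors, DESeq2 and limma-voom 17 each, alternatives chosen after seeing the data. Over all genes, leaving out 1 library gave 2002 to 5121 calls under siRNA and no count filter 3979. Upper quartile scaling changed the split from 1586 rising and 1895 falling to 1820 and 1757. Calls over all genes were not counted for the fit of all 12 libraries. After knockout (9 members), leaving out 1 library gave 5 to 9 and all 12 libraries in 1 fit 3. Leaving out 1 library gave 2500 to 3586 calls over all genes, where all libraries gave 3407. For the difference of responses (10 members), leaving out 1 library gave 6 to 12, no count filter 18 and limma-voom 5. Over all genes (3687 calls) these settings gave 2960 to 3990, 3682 and 3734. The log2 fold change under siRNA ranged, over leaving out each library, from -0.46 to 0.27 for ATF4, -0.23 to 0.44 for CEBPG, -1.12 to 0.41 for PCK2, -0.91 to 0.18 for SLC7A5, -2.48 to 1.98 for SLC1A4, -1.37 to 0.95 for SLC6A9 and -0.50 to 0.19 for XPOT. Without siCont replicate 2, upper quartile scaling, RLE, DESeq2 and limma-voom in that order gave 0.29, 0.27, 0.27 and 0.26 for ATF4; 0.46, 0.44, 0.44 and 0.44 for CEBPG; 0.43, 0.41, 0.41 and 0.40 for PCK2; 0.20, 0.18, 0.18 and 0.18 for SLC7A5; 2.00, 1.98, 1.99 and 1.86 for SLC1A4; 0.97, 0.94, 0.95 and 0.97 for SLC6A9; 0.21, 0.18, 0.18 and 0.19 for XPOT. The difference of responses ranged from -0.34 to 0.74 for SLC7A5 and -1.53 to 2.92 for SLC1A4, and without siCont replicate 2, DESeq2 and limma-voom gave 0.75 and 0.74 for SLC7A5 and 2.94 and 2.72 for SLC1A4; DESeq2 gave 0.46 for PPP1R15A, whose value with all libraries was -0.29. The cause of these shifts, other than the library left out, was not tested. Libraries were correlated between the 2 groups of an experiment, on log2 CPM with each gene's group mean taken away. Same-numbered libraries then correlated by -0.009 to 0.058, and the others by -0.060 to 0.021. Values this small do not settle whether the numbers mark pairs. With a replicate block 6 members were called under siRNA, 9 after knockout and 8 for the difference. The count of 20 members in siCont replicate 2 was 20 to 23 under other pseudocounts, library totals or 1.5 times. Genes of few counts, such as SLC1A4 and ATF3, have wide errors.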
